A study of Rattus norvegicus with 12 samples.

Results

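Kidney nuclei of obese ZSF1 rats that received an sGC stimulator were compared with those of obese rats that received vehicle. The comparison holds 115063 nuclei from 6 rats, chosen by the group given for each nucleus, out of 217132 nuclei from 12 rats in the study. The vehicle group (Obese) gave 67160 nuclei from rats RK7_4, RK9_4 and RK16_4, and the stimulator group (Obese+sGCstim) gave 47903 nuclei from rats RK57_4, RK58_4 and RK61_4. All 6 were male rats of the ZSF1-LeprfaLeprcp/Crl strain, which carry leptin receptor mutations in every cell and were fed a high energy chow. From 13 to 14 weeks of age they were dosed for 12 weeks, to 25 to 26 weeks, either with a vehicle of ethanol, Kolliphor HS15 and water or with BAY 1165747, called sGCstim, at 3 mg/kg 1 time a day. Each of these study groups had 10 rats, of which 3 were sequenced. The other 6 sequenced rats were 3 lean ones without treatment and 3 obese ones given an sGC activator. They entered the estimate of the spread between rats, and some values of the lean rats are given for reference.

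Soluble guanylate cyclase (sGC) is the receptor of nitric oxide and makes cyclic GMP, which relaxes vascular smooth muscle and acts on pericytes, mesangial cells and fibroblasts. Stimulators of sGC bind the enzyme with its reduced heme in place and add to the effect of nitric oxide, whereas activators act on the oxidised or heme-free enzyme. In the nephron, the proximal tubule reabsorbs most of the filtrate, with a convoluted part (PCT) followed by a straight part (PST) of which S2 is the upper segment. Injured proximal tubule cells lose transporters, and Spp1, the gene of osteopontin, is often raised in stressed tubules. The question of the comparison was whether 12 weeks of stimulation altered the make-up of the kidney's cell types and the states within each type.

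Nuclei were taken from snap-frozen kidney pieces, and each transcript molecule was counted once through its unique molecular identifier (UMI). Cell types and clusters are the names that the authors deposited for each nucleus. Gene counts were not analysed here, so these names were not checked against marker genes. The retained nuclei of a rat held from 11898496 to 48034090 UMIs. The vehicle rats gave 22387 ± 18316 nuclei (SD, n = 3) and the stimulator rats 15968 ± 6345 (SD, n = 3), and RK9_4 alone gave 37.8% of all nuclei compared. Between 29 and 290 cell barcodes were shared by any pair of the 6 libraries, at most 1.25% of the smaller library, and the authors had removed doublets.

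The libraries stood apart within each group in mitochondrial content and depth, and the part of this in the results that follow was not tested. Of the nuclei of RK7_4, 55.6% had over 1% mitochondrial UMIs, against 83.5% in RK9_4 and 39.2% in RK16_4. In the stimulator group this share was 11.5% in RK57_4, 4.47% in RK58_4 and 56.9% in RK61_4. The share of nuclei with under 1000 UMIs was 62.2%, 72.7% and 24.2% under vehicle and 22.1%, 12.6% and 50.4% under sGCstim. RK61_4 thus lay among the vehicle rats in both measures, and RK16_4 lay nearer to RK57_4 than to RK7_4 in the share of shallow nuclei.

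The 11 cell types took overlapping shares of the kidney under vehicle and sGCstim. The share of each type among all nuclei of a rat was compared as log odds, and none of the 11 passed an adjusted p of 0.05 (0% called; limma, lowest adjusted p = 0.465). None had an unadjusted p below 0.05, by limma or by edgeR, and none had 3 stimulator rats above (0%) or below (0%) all 3 vehicle rats. As shares of a whole, these values cannot tell fewer nuclei of one type from more nuclei of another.

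The proximal tubule was the most abundant type in each of the 6 rats. It made up 75.8%, 92.1% and 37.8% of nuclei in RK7_4, RK9_4 and RK16_4, and 52.0%, 44.7% and 70.6% in RK57_4, RK58_4 and RK61_4. The range of the vehicle rats enclosed that of the stimulator rats, and the odds ratio was 0.456 with a 95% interval of 0.121 to 1.72 (adjusted p = 0.465). The loop of Henle (LOH), which builds the medullary salt gradient, came closest to a separation. Its share was 5.53%, 1.63% and 9.79% under vehicle and 12.0%, 5.90% and 12.4% under sGCstim, so that the stimulator rat was the higher one in 8 of the 9 comparisons of 1 rat with 1 rat. The odds ratio was 2.25, with an interval of 0.732 to 6.95 (adjusted p = 0.465).

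The distal types were lowest where the proximal share was highest. The distal convoluted tubule (DCT), site of the thiazide-sensitive salt transporter, held 2.39%, 0.823% and 9.58% under vehicle and 6.37%, 10.98% and 2.24% under sGCstim. Connecting tubule and principal cells (CNT/PC), which carry aldosterone-regulated sodium channels, held 2.59%, 0.672% and 6.75% against 7.36%, 9.66% and 1.99%. The transitional DCT/CNT type held 1.23%, 0.338% and 4.21% against 3.79%, 5.62% and 0.635%. Within both groups the rat with the lowest share of these 3 types was the one with the largest proximal share, RK9_4 or RK61_4. Acid-secreting type A intercalated cells (IC-A) ranged from 0.382% to 4.79% under vehicle and from 1.07% to 5.33% under sGCstim, and base-secreting type B cells (IC-B) from 0.292% to 6.18% and from 0.773% to 4.50%.

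Glomerular, vascular and interstitial types differed less between groups than between rats. Endothelial nuclei (Endo) held 3.02%, 1.07% and 11.3% under vehicle and 6.98%, 7.79% and 4.09% under sGCstim. Stroma, which holds the pericytes, fibroblasts and smooth muscle cells, held 1.66%, 1.302% and 4.05% against 2.06%, 2.30% and 3.13%. Immune nuclei held 4.16%, 0.952% and 1.90% against 1.45%, 2.08% and 2.29%. Podocytes (Podo), the filtration cells of the glomerulus, held 0.531%, 0.483% and 3.62% against 1.08%, 1.10% and 0.884%. The 3 stimulator rats were close to one another for podocytes, at 1.02% ± 0.121 (SD, n = 3), and lay between the vehicle rats, whose mean was 1.54% ± 1.80 (SD, n = 3). Without RK16_4 the difference in log odds of podocytes was 0.70 (limma, adjusted p = 0.132), against 0.04 with all rats.

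These type shares turned on RK16_4 and RK9_4. With RK16_4 left out, 7 of the 11 types had an unadjusted p below 0.05 and none an adjusted one, the lowest being 0.0502. In that fit the difference in log odds was -1.55 for the proximal tubule, 1.26 for endothelial nuclei, 1.23 for the loop of Henle and 1.42 for CNT/PC. Without RK9_4 the difference was -0.08 for the proximal tubule and 0.29 for the loop of Henle (limma, adjusted p = 0.974 for both). Without RK61_4, CNT/PC and DCT/CNT had an unadjusted p below 0.05, with an adjusted p of 0.214 for both.

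**Figure D1:**
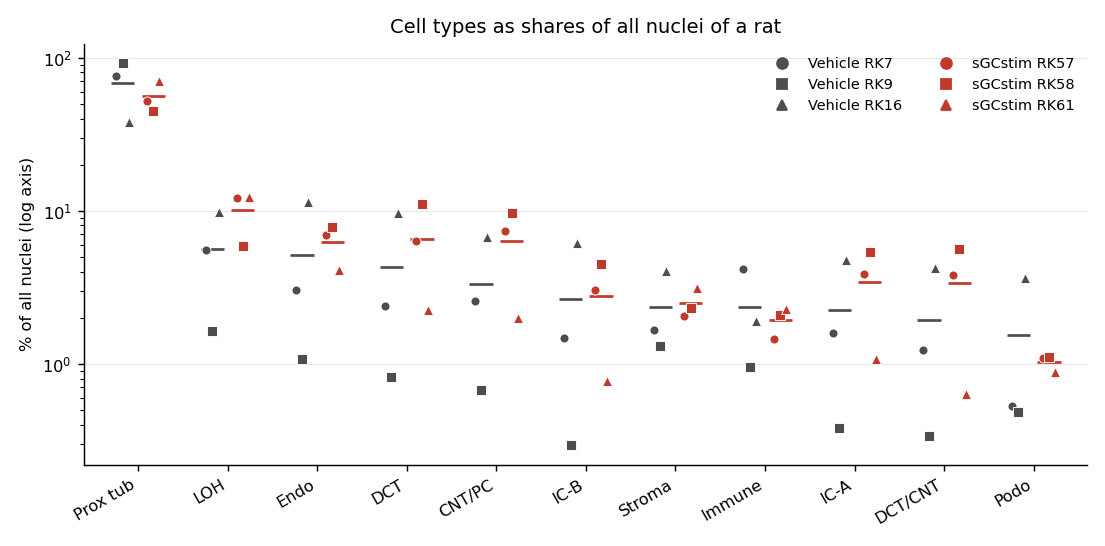
Share of each cell type among all nuclei of a rat (percent, log axis) in the 3 vehicle rats (grey) and the 3 sGCstim rats (red), with a marker for each rat and a bar at the group mean. The groups overlap in all 11 types, and the vehicle rats RK9_4 and RK16_4 are far apart in most of them.

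Each cluster was then taken as a share of the nuclei of its own type, which leaves out differences in how much of a type a library held. This was done for the 23 clusters of the 6 types that hold more than 1 cluster, so for all but podocytes and immune cells. None of the 23 passed (0% called; limma, lowest adjusted p = 0.852), none had an unadjusted p below 0.05 by limma (1 by edgeR, PTnov2), and none had groups that did not overlap in either direction (0% higher, 0% lower). Log odds were higher under sGCstim for 13 clusters and lower for 10, with a median change of 0.04.

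The shares of the endothelial and distal clusters differed little between the groups. Among endothelial nuclei, the main glomerular endothelial cluster GEC(Meis2+) held 90.2% ± 1.56 (SD, n = 3) under vehicle and 90.2% ± 1.39 (SD, n = 3) under sGCstim. The odds ratio was 1.00, and its 95% interval of 0.631 to 1.60 bounds the change that these rats allow. The GEC(Reln+) cluster held 3.13%, 3.43% and 3.36% under vehicle and 2.43%, 3.77% and 3.05% under sGCstim. The vascular cluster AA/LA/EA held 5.64%, 5.57% and 8.21% against 5.79%, 6.39% and 7.88%. In the joint type of DCT, connecting tubule and principal cells, CNT/PC held 41.4%, 36.1% and 32.7% against 41.2%, 36.5% and 40.7%, and DCT 40.6%, 45.3% and 46.4% against 36.9%, 42.6% and 45.9%. The intervals of their odds ratios were 0.775 to 1.63 and 0.596 to 1.39, and that of CNT/PC was the narrowest of the 23.

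In the loop of Henle, the thick ascending limb (TAL), which carries the loop-diuretic-sensitive salt transporter, held 75.0%, 78.8% and 67.0% under vehicle and 86.1%, 78.4% and 74.9% under sGCstim. Only RK57_4 exceeded every vehicle rat, and the odds ratio was 1.44 with an interval of 0.846 to 2.44 (adjusted p = 0.852). The cluster named ATL, of the thin limb, held 5.14%, 3.24% and 4.12% against 1.35%, 2.21% and 4.45%, from 16 to 128 nuclei a rat, and 2 of the 3 stimulator rats lay below all vehicle rats. Its odds ratio was 0.571, with an interval of 0.182 to 1.79. The thin limb clusters DTL and DTL(Shroom3+) overlapped as well.

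Among stromal nuclei, the contractile cluster SMC/Peri, smooth muscle cells and pericytes that respond to cyclic GMP, held 6.86%, 7.95% and 24.1% under vehicle and 16.9%, 14.2% and 10.0% under sGCstim. Fib/Peri, fibroblasts with pericytes, held the rest, so both clusters report 1 difference. Each stimulator rat lay above RK7_4 and RK9_4 and below RK16_4. With all 6 rats the odds ratio of SMC/Peri was 1.22, with an interval of 0.545 to 2.73 (adjusted p = 0.852). Without RK16_4 the log odds were higher by 0.65 under sGCstim, with an adjusted p of 0.202. Among intercalated cells, IC-B held 48.3%, 43.3% and 56.3% against 44.2%, 45.8% and 42.0%. The small cluster IC-A/CD-Trans held 0%, 0.683% and 4.86% against 3.17%, 6.89% and 0.233%, and had no nucleus in RK7_4.

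**Figure D2:**
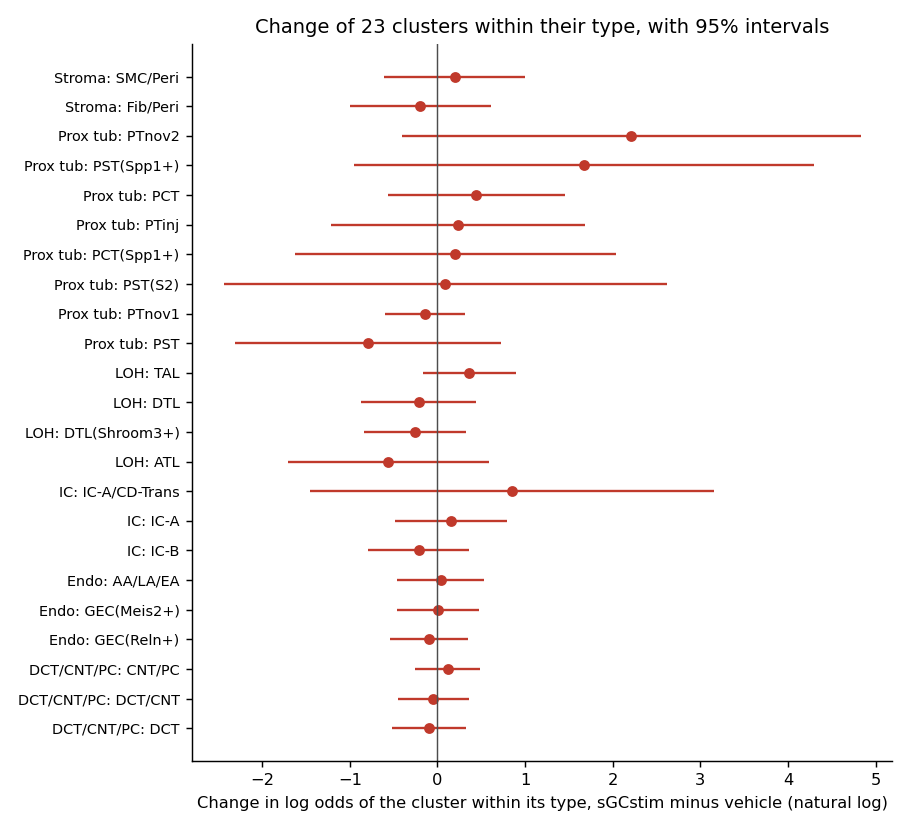
Change in the log odds of each of 23 clusters within its own type, sGCstim minus vehicle (natural log), with points for the limma estimate over all rats and lines for its 95% interval. All intervals hold 0. The widest are those of PTnov2, PST(Spp1+), PST(S2) and IC-A/CD-Trans, while those of the endothelial, DCT, DCT/CNT and CNT/PC clusters are narrow.

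PST, the cluster of the straight tubule, held 67.8%, 75.4% and 15.4% of proximal nuclei in RK7_4, RK9_4 and RK16_4, and 51.8%, 21.9% and 26.5% in RK57_4, RK58_4 and RK61_4. The stimulator rats fell between the highest and lowest vehicle rats. The means were 52.9% ± 32.6 (SD, n = 3) and 33.4% ± 16.1 (SD, n = 3), with an odds ratio of 0.452 and an interval of 0.0996 to 2.05 (adjusted p = 0.852). Without RK16_4 the difference in log odds of PST was -1.67, with an adjusted p of 0.101.

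The injured cluster PTinj held 5.96%, 1.14% and 24.0% under vehicle and 8.51%, 6.55% and 6.66% under sGCstim. The stimulator rats were within 2 percentage points of one another, above RK7_4 and RK9_4 and far below RK16_4. As a result the mean share was lower under sGCstim, at 7.24% ± 1.10 (SD, n = 3) against 10.4% ± 12.1 (SD, n = 3), while the log odds were higher by 0.23. Neither test separated the groups (exact permutation test of the shares, p = 1; limma, adjusted p = 0.929). The log odds difference was 1.05 without RK16_4 (limma, adjusted p = 0.249) and -0.60 without RK9_4 (limma, adjusted p = 0.927). Lean rats held from 3.27% to 3.86%. PTinj, PST and the other proximal clusters outside the naming rule, PCT, PCT(Spp1+), PST(S2) and PTnov1, were chosen with their values known, as was GEC(Meis2+).

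The shares of both clusters named for Spp1 differed widely between rats of the same group. PST(Spp1+) held 2.36%, 0.175% and 7.34% of proximal nuclei under vehicle and 1.04%, 6.22% and 42.0% under sGCstim. RK61_4 alone lay above all vehicle rats, and the odds ratio of 5.32 had an interval from 0.387 to 73.2 (adjusted p = 0.852). On the log odds scale the difference was 1.67 with all rats, 0.57 without RK61_4 (limma, adjusted p = 0.819) and 0.60 without RK9_4 (limma, adjusted p = 0.992). In RK61_4, 99.97% of the nuclei of this cluster had over 1% mitochondrial UMIs and 94.7% had under 1000 UMIs, while in RK57_4 these shares were 4.48% and 23.9%. PCT(Spp1+) held 0.312%, 10.4% and 3.55% against 1.26%, 1.79% and 9.68%, so that RK9_4 and RK61_4, 1 rat of each group, had the high values. The difference in log odds of PCT(Spp1+) was 0.20 with all rats, 0.99 without RK9_4 and -0.44 without RK61_4.

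The clusters of the convoluted and upper straight tubule overlapped. PCT held 10.4%, 6.65% and 23.1% under vehicle and 18.7%, 31.2% and 8.34% under sGCstim. PST(S2) held 8.17%, 0.897% and 19.3% against 14.1%, 27.3% and 0.402%. For both clusters RK9_4 was the lowest vehicle rat and RK61_4 the lowest stimulator rat. The difference in log odds was 0.45 for PCT with all rats, 0.12 without RK9_4 and 0.87 without RK61_4. For PST(S2) it was 0.09 with all rats, -0.84 without RK9_4 and 1.46 without RK61_4. PTnov1 was steady, at 5.01%, 5.38% and 7.04% against 4.02%, 4.91% and 6.37%. In each of the 6 rats at least 99.6% of its nuclei had over 1% mitochondrial UMIs.

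PTnov2 had no nucleus among 52992 proximal nuclei of the vehicle rats, so a share of up to 0.00566% is compatible with that count (3 counts of the total, counting error only). It had 29 of 28339 in the stimulator rats, a pooled share of 0.102%, which is 18.1 times that limit. Both values pool the nuclei of 3 rats and leave out the spread between rats. Of these, 27 came from RK57_4 (0.420%), 2 from RK58_4 (0.0365%) and 0 from RK61_4. Without RK57_4 the pooled stimulator share was 0.00913%, from 2 nuclei. Without RK9_4, which gave most vehicle nuclei, the pooled share of all stimulator rats was 4.42 times the vehicle limit. In lean rats PTnov2 held from 2.48% to 4.89% of proximal nuclei. None of the 27 nuclei of RK57_4 reached 1000 UMIs. The log odds did not pass the threshold (limma, adjusted p = 0.852), and the shares by rat overlapped (exact permutation test, p = 0.4). The count in the stimulator group rests on RK57_4.

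**Figure D3:**
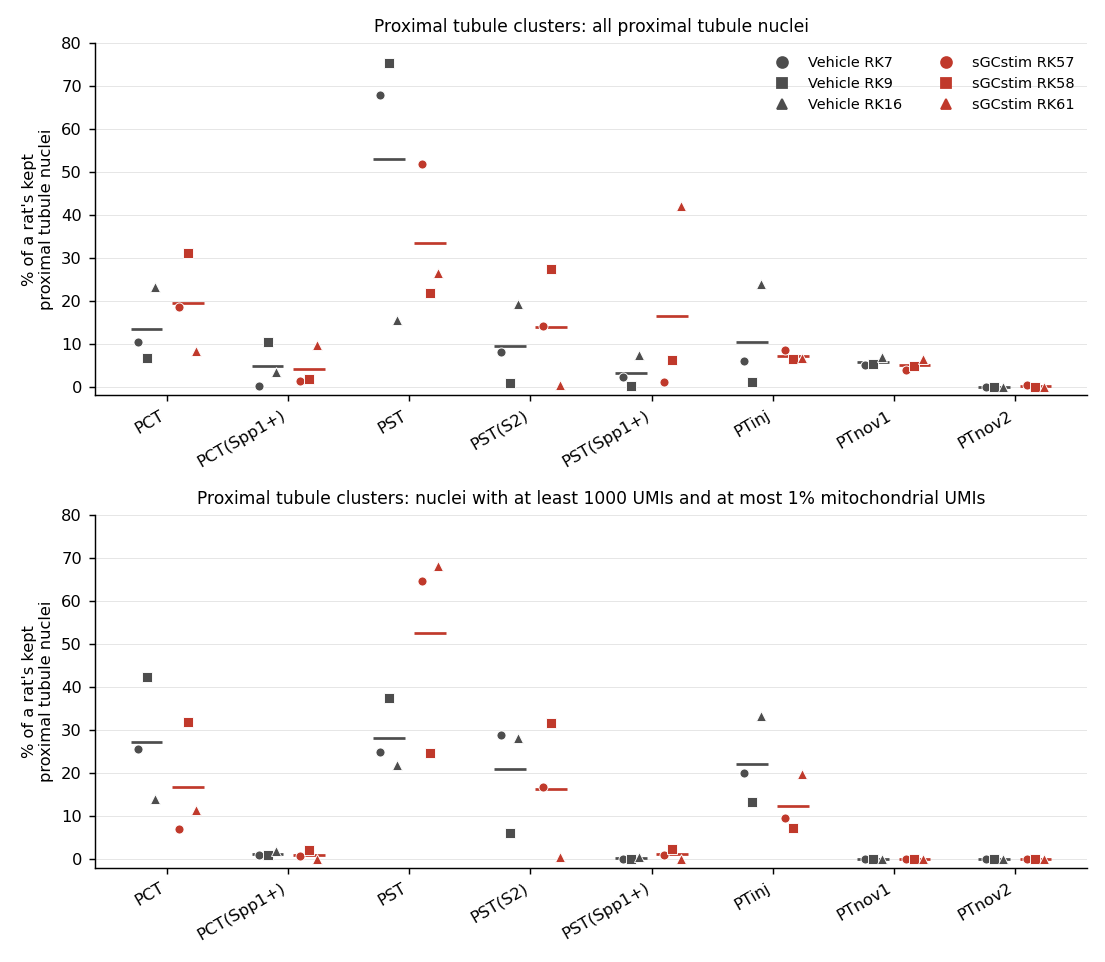
Share of each proximal tubule cluster in percent of the kept proximal nuclei of a rat, for vehicle rats (grey) and sGCstim rats (red), with a marker for each rat and a bar at the group mean. The upper panel uses all nuclei, where mean PST is higher under vehicle, and the lower panel uses nuclei with at least 1000 UMIs and at most 1% mitochondrial UMIs, where mean PST is higher under sGCstim.

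The direction of the proximal shares depended on which nuclei were counted. When the nuclei were limited to those with at least 1000 UMIs and at most 1% mitochondrial UMIs, a limit chosen after the data were seen, RK7_4 kept 2186 of 8005 proximal nuclei, RK9_4 3255 of 40028 and RK16_4 3217 of 4959. RK57_4 kept 5043 of 6425, RK58_4 4741 of 5480 and RK61_4 5381 of 16434. PST then held 24.8%, 37.5% and 21.9% of the kept proximal nuclei under vehicle and 64.6%, 24.7% and 68.1% under sGCstim. RK57_4 and RK61_4 were now above all vehicle rats, and RK58_4 lay among them. The log odds were higher under sGCstim by 1.04, the opposite sign to that over all nuclei, with an adjusted p of 0.672 (exact permutation test of the shares, p = 0.3). In lean rats the same limit gave 73.3%, 57.2% and 71.7%.

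PTinj under the same limit held 19.9%, 13.2% and 33.2% under vehicle and 9.60%, 7.28% and 19.8% under sGCstim. RK57_4 and RK58_4 were below all vehicle rats, while RK61_4 was close to RK7_4. The mean was 22.1% ± 10.2 (SD, n = 3) against 12.2% ± 6.69 (SD, n = 3). The difference in log odds was -0.74 and did not pass the threshold (limma, adjusted p = 0.672; exact permutation test of the shares, p = 0.2). For PCT the difference in log odds was -0.72 and for PST(S2) it was -0.99, both with the sign turned and an adjusted p of 0.672. PST(Spp1+) made up 0.0372% of kept proximal nuclei in RK61_4. PTnov1 made up at most 0.0307% in any of the 6 rats.

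Taken over all within-type shares at once, rats of the same group were no closer to each other than rats of different groups. The distance between rats, over centred log-ratios of the clusters within each type, averaged 5.07 between the groups and 5.42 within them (difference -0.35, exact permutation test over 10 divisions, p = 0.5, smallest possible 0.1). The closest pair was RK16_4 and RK58_4, 1 of each group, at 2.39. The farthest was RK57_4 and RK61_4, both given sGCstim, at 7.68. With at most 1% mitochondrial UMIs the difference was 0.35 (exact permutation test, p = 0.4).

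The nuclei of PST themselves differed between rats in depth and mitochondrial content, with RK7_4 and RK9_4 standing apart. Their median UMI number was 639, 887 and 1810 in RK7_4, RK9_4 and RK16_4, and 2152, 1832 and 1908.5 in RK57_4, RK58_4 and RK61_4. All 3 stimulator rats lay above all 3 vehicle rats, the only cluster of the 18 tested in which they did (5.56% of clusters, none lower, 0%). RK58_4 and RK16_4 were nearly equal. The change was 1.94-fold with an interval of 1.15 to 3.29, an unadjusted p of 0.0152 and an adjusted p of 0.273 (limma on log2 medians). No cluster passed the threshold for median UMIs (0% called). Lean rats had medians of 4047, 3220 and 2226.

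Median mitochondrial UMIs in PST were 5.33%, 4.28% and 0.0837% under vehicle and 0%, 0% and 0.0763% under sGCstim. All stimulator rats were below all vehicle rats, again the only such cluster of 18 (5.56% lower, 0% higher), although RK16_4 and RK61_4 differed little. On the scale of log2(percent + 0.1) the change was -3.76, with an interval of -6.74 to -0.78 and an unadjusted p of 0.0179, but an adjusted p of 0.322, and 0% of clusters were called. The share of PST nuclei with over 1% mitochondrial UMIs was 85.9%, 92.8% and 2.87% against 0.0600%, 0.167% and 14.6%. RK7_4 and RK9_4 were thus far from the other four rats, and RK61_4 was above RK16_4 in that share.

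Without RK16_4, PST passed in UMIs (log2 change 1.38, adjusted p = 0.00326) and in mitochondrial percentage (log2 change -5.34, adjusted p = 0.0147). Leaving out any other rat left PST short of the threshold in both. In PST nuclei with at most 1% mitochondrial UMIs the log2 change in median UMIs was 0.23 (adjusted p = 0.985), and in those with at least 1000 UMIs the log2 change in mitochondrial percentage was -2.08 (adjusted p = 0.556), both settings chosen after the data were seen. The part of the libraries in these values was not tested.

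In podocytes, 2 vehicle rats and 1 stimulator rat had shallow nuclei with many mitochondrial UMIs. Their median UMI number was 590, 934.5 and 2156 under vehicle and 2606, 2554 and 842 under sGCstim, so RK61_4 lay with RK7_4 and RK9_4. Median mitochondrial UMIs were 5.74%, 5.65% and 0.0430% against 0%, 0% and 4.73%. The change in UMIs was 1.68-fold with an interval of 0.966 to 2.91 (adjusted p = 0.588). Without RK16_4 podocytes passed in UMIs at a log2 change of 1.26 (adjusted p = 0.00545), and without RK61_4 at 1.28 (adjusted p = 0.00529). Median mitochondrial UMIs passed in neither case (adjusted p = 0.199 and 0.121). In PST(Spp1+) the median was 625, 950.5 and 821 UMIs against 1409, 900 and 832, with mitochondrial medians of 6.96%, 4.62% and 2.72% against 0%, 0.304% and 5.53%.

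Across the 18 clusters with at least 20 nuclei in each of the 6 rats, median UMIs were higher under sGCstim in 7 and lower in 11, with a median log2 change of -0.04. Mitochondrial percentage was lower in 15 of the 18 and higher in 3, with a median log2 change of -0.66. In TAL the median UMIs were 1328.5, 2012 and 1211.5 against 1477, 1458.5 and 1830, and in GEC(Meis2+) 1027, 1592 and 886 against 769.5, 1086 and 1420.5, so both overlapped. RK9_4, below all stimulator rats in PST, was the highest vehicle rat in TAL, GEC(Meis2+), IC-B and CNT/PC. These 4 clusters were chosen with their values known.

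**Figure D4:**
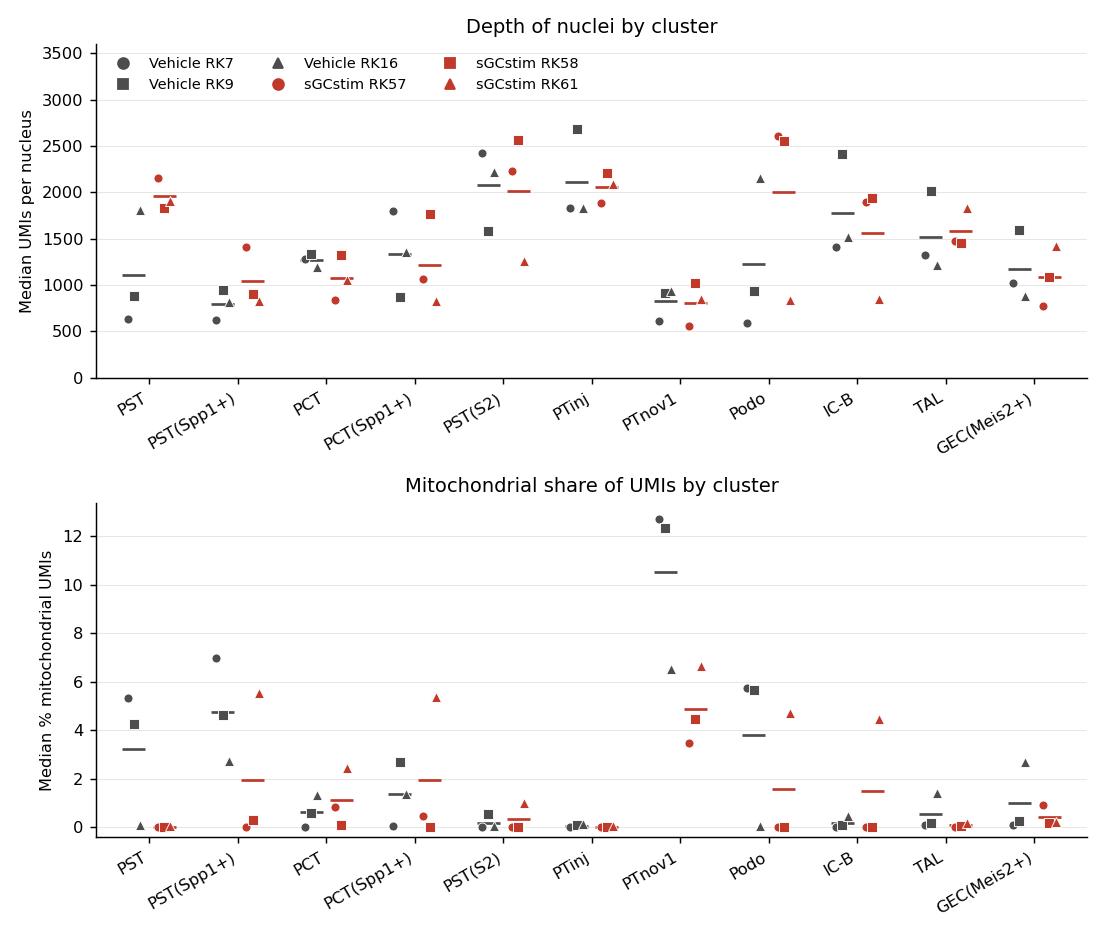
Median UMIs per nucleus (upper panel) and median percent of mitochondrial UMIs (lower panel) in 11 clusters for each vehicle rat (grey) and sGCstim rat (red), with bars at group means of the rats. In PST the vehicle rats RK7_4 and RK9_4 are apart from the other rats, and in podocytes RK61_4 joins them.

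Median genes per nucleus were higher under sGCstim in 14 of the 18 clusters and lower in 4, with a median log2 change of 0.07. In PST the medians were 475, 619 and 1184.5 under vehicle and 1266, 1104.5 and 1211.5 under sGCstim, a 1.69-fold change with an interval of 1.19 to 2.42 (unadjusted p = 0.00399, adjusted p = 0.0718). In podocytes they were 436, 644 and 1199 against 1333, 1383 and 637.5 (adjusted p = 0.198). PST(Spp1+) had 461, 637 and 654 against 966, 706 and 627. None of the 18 clusters passed (0% called) or had groups apart (0% higher, 0% lower). Without RK16_4, PST (adjusted p = 0.00135) and podocytes (adjusted p = 0.0044) passed, and without RK61_4 podocytes did (adjusted p = 0.0136).

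To narrow the range of depth, genes were counted in nuclei with 1000 to 1500 UMIs, which left 10 clusters. UMIs inside this band were not compared between rats, so a difference in depth may remain. Of these, PST and Fib/Peri passed the threshold, both higher under sGCstim (20% called). PST nuclei had medians of 757, 702 and 921 genes under vehicle and 896, 900 and 899 under sGCstim, a 1.14-fold change (interval 1.04 to 1.25, adjusted p = 0.0495). The stimulator rats were within 4 genes of one another and below RK16_4. Fib/Peri nuclei had 827, 769 and 900 against 959, 954.5 and 901.5, a 1.13-fold change (interval 1.03 to 1.24, adjusted p = 0.0495). It was the only cluster of the 10 whose groups did not overlap (10% higher, 0% lower), and RK16_4 and RK61_4 were nearly equal. RK7_4 had 37 Fib/Peri nuclei with at least 1000 UMIs, so its median in the band rests on few nuclei. In DCT the medians were 731, 691.5 and 888 against 863.5, 807 and 845 (adjusted p = 0.206).

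These calls were close to the threshold and changed as single rats were left out. Both were lost when RK7_4, RK9_4, RK57_4, RK58_4 or RK61_4 was left out, with adjusted p from 0.101 to 0.799. Without RK16_4, 4 clusters passed, namely PST, Fib/Peri, DCT and TAL. At 1500 to 2000 UMIs, none of 9 clusters passed. RK7_4 and RK9_4 had the fewest genes within the first UMI band in PST and were the rats with most mitochondrial UMIs in that cluster. The part of the mitochondrial UMIs in the gene numbers was not tested.

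The S phase score, which reads the level of DNA replication genes, was higher under sGCstim in 3 proximal clusters. Mean S scores in PST were -0.00347, -0.00315 and -0.00595 in RK7_4, RK9_4 and RK16_4, and 0.00525, 0.00213 and -0.000181 in RK57_4, RK58_4 and RK61_4. All stimulator rats were above all vehicle rats, by a score difference of 0.00659 between the means (SE 0.00186, adjusted p = 0.0254). In PST(S2) the means were 0.000928, -0.00458 and -0.00423 against 0.00302, 0.0041 and 0.0109, with a difference of 0.00865 (SE 0.00239, adjusted p = 0.0254). RK61_4, the highest of these, had 66 such nuclei. In PCT(Spp1+) they were -0.0112, -0.00269 and -0.00382 against 0.00828, 0.00919 and -0.000498, with a difference of 0.0116 (SE 0.00334, adjusted p = 0.0254). RK7_4, the lowest, had 25 nuclei.

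These 3 were 16.7% of the 18 clusters tested. Groups did not overlap in 6 of the 18 (33.3% higher, 0% lower), which added PCT, PTnov1 and DCT/CNT. PCT had means of 0.000259, 0.000238 and -0.00111 under vehicle and 0.00649, 0.00391 and 0.000679 under sGCstim. DCT/CNT had -0.00359, -0.0003 and -0.00465 against 0.00135, 0.00192 and 0.00432. PTnov1 had -0.00122, -0.00457 and -0.00211 against -0.000957, 0.00375 and -0.000967. Their adjusted p-values were 0.233, 0.167 and 0.284. Over the 18 clusters the S score was higher under sGCstim in 14 and lower in 4. Over all nuclei of a rat the mean S score was -0.00134, -0.00271 and -0.00285 under vehicle and 0.0039, 0.00312 and -0.000282 under sGCstim. These did not overlap either (exact permutation test, p = 0.1). In the proximal tubule as a whole the groups overlapped, at -0.00182, -0.00284 and 0.000115 against 0.00575, 0.0043 and -4.37e-05.

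The scores were also compared within the narrower UMI band, a setting chosen after the data were seen. In nuclei with 1000 to 1500 UMIs, PST had means of -0.00759, -0.0033 and -0.00713 against 0.00212, 0.000662 and -0.00222, and the difference of 0.0062 had an adjusted p of 0.181. PST(S2) passed in that band, with a difference of 0.0124 (adjusted p = 0.0271), where RK61_4 had 26 nuclei. PCT(Spp1+) had too few nuclei in RK7_4 for this band. The number of clusters called ranged from 0 to 5 as each rat was left out: 5 without RK61_4, 1 without RK7_4 or RK57_4, and 0 without RK9_4, RK16_4 or RK58_4.

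The deposited phase calls rest on the same phase scores and so are not a separate result, and they took the same direction in PST. Phase S was assigned to 23.8%, 27.5% and 31.3% of PST nuclei under vehicle and to 41.9%, 39.4% and 35.4% under sGCstim, without overlap (exact permutation test, p = 0.1, the smallest possible). Lean rats had 35.9%, 37.3% and 35.6%. The calls rest on scores whose means lie close to 0, so these shares do not count cycling nuclei. Over all nuclei, phase S was assigned to 29.4%, 28.3% and 32.9% under vehicle and 39.1%, 38.9% and 33.5% under sGCstim, without overlap (exact permutation test, p = 0.1). They were not brought to equal depth, and the part of free RNA in them was not tested.

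**Figure D5:**
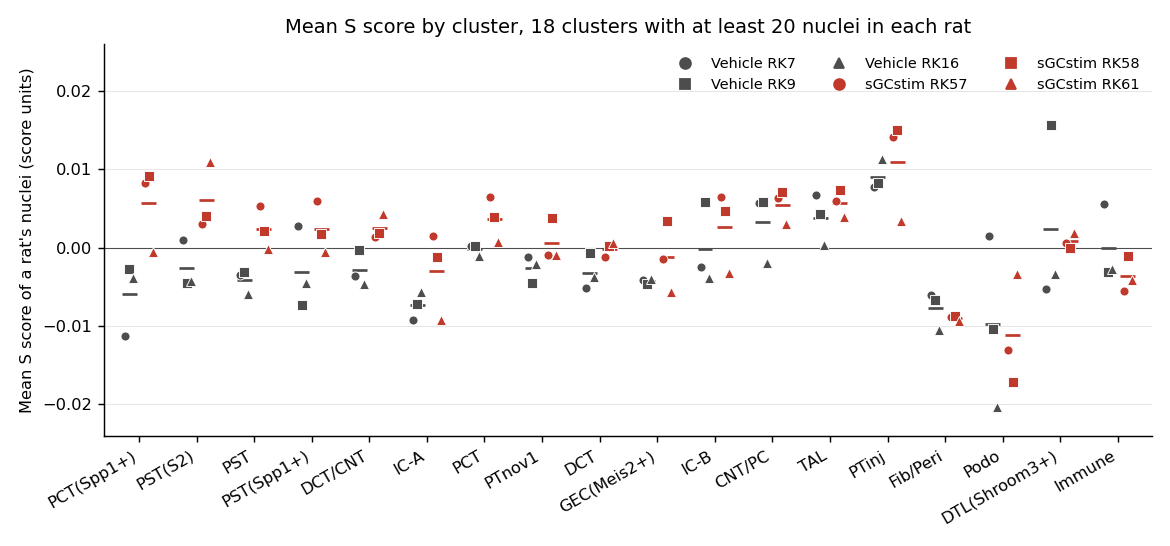
Mean S score (score units) of each rat in 18 clusters, ordered by the difference of sGCstim (red) minus vehicle (grey), with a marker for each rat and a bar at the group mean. PCT(Spp1+), PST(S2) and PST passed the threshold, and in 3 further clusters the groups did not overlap.

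No cluster passed for the G2M score (0% called). PST had means of 0.00583, 0.00643 and -0.00774 under vehicle and -0.0117, -0.00849 and -0.0042 under sGCstim, so RK16_4 lay within the stimulator rats (difference -0.00965, unadjusted p = 0.02, adjusted p = 0.134). Without RK16_4, PST passed at a difference of -0.0143 (adjusted p = 0.00484). Fib/Peri had 0.00257, -0.00619 and -0.0077 against -0.0196, -0.0119 and -0.00712, with 1 stimulator rat inside the vehicle range (adjusted p = 0.134). IC-B was the only cluster with the groups apart (5.56% higher, 0% lower), at -0.00748, -0.00617 and -0.00329 against 0.00161, -0.00104 and 0.00419 (adjusted p = 0.134). In IC-B, RK61_4 had a median of 852.5 UMIs and 4.45% mitochondrial UMIs, against 1899 and 1936 UMIs and 0% in RK57_4 and RK58_4.

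By type rather than by cluster, 5 measures in 11 types gave 55 comparisons, of which 1 had groups that did not overlap (1.82%), the G2M score of IC-B, and in 54 the rats overlapped. Proximal tubule nuclei had median UMIs of 699, 892 and 1546 under vehicle and 1860, 1666 and 885 under sGCstim (exact permutation test, p = 0.3). Their median mitochondrial UMIs were 3.80%, 3.97% and 0.227% against 0%, 0.0343% and 4.70% (exact permutation test, p = 0.8). The separation of PST nuclei therefore did not hold for the proximal tubule as a whole, in which RK61_4 had the highest mitochondrial median of the 6 rats.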

How the data were processed

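Each of the 6 rats was 1 single-nucleus library. The authors aligned reads with Cell Ranger (version 6 per the submitters' processing notes, while the study's list of software gives another version) to rn6 with introns counted, corrected ambient RNA, removed doublets, and kept nuclei between 200 and 3000 genes with up to 15% mitochondrial UMIs (0 nuclei lay outside), merged the rats with batch correction, clustered and named types. The authors deposited UMIs of a nucleus as counts without normalization, genes as whole numbers, mitochondrial UMIs as percent of each nucleus's total, and S and G2M phase scores as scores with no fixed range. No column of per-sample values was left unused (0).

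The rat was the replicate, and rats carry no label of separate batches. A cluster's type is the type that holds most of its nuclei (41 nuclei whose cluster and type names part were left out of its share). Log odds of shares (0.5 nuclei added to the cluster and 1 to the total) and, for clusters with at least 20 nuclei in each compared rat, log2 medians (mitochondrial percent + 0.1) or mean scores were fitted with limma 3.58.1 in R 4.3.3 over the 12 rats in 4 groups (8 residual degrees of freedom), with Benjamini-Hochberg adjustment over the clusters or types of a measure and a threshold of 0.05. Changes on the pseudocount scale understate those of low percentages. Exact permutation tests were two-sided, with 10 divisions of 3 against 3 and a smallest p of 0.1. The fits were tested on simulated data. Tables used pandas 2.3.3, numpy 2.4.6 and scipy 1.17.1.

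All types are named. Clusters are named where they passed, where groups did not overlap, or where they had 1 of the 2 largest changes of a type or 1 of the 3 largest of a measure. Types, clusters and lists were chosen with earlier results of these data known. Alternatives included edgeR 4.0.16 on numbers of nuclei, other scales, denominators, filters on nuclei, and each rat left out.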

Additional observations from a re-analysis of the deposited data

How the results depend on the processing

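No paired analysis was possible because the rats in the deposited table carry no replicate number. For cluster shares within type and for type shares, 0 were called under each alternative run, each left-out rat included (0 to 0). The 50 named results gave 442 values under the alternatives other than leaving out a rat, of which 45 changed direction, 17 lost a call and 1 gained one. With a rat left out they gave 300 values, of which 21 changed direction, 23 lost a call and 10 gained one. The rest kept their direction and their side of the threshold. Where a direction changed the cause was not tested. With nuclei of at least 1000 UMIs, the log odds change was 0.57 for PST, -0.46 for PCT, -0.73 for PCT(Spp1+), -0.54 for PST(S2), -0.35 for PTinj, 0.026 for GEC(Reln+) and, among types, -0.40 for IC-B. With at most 1% mitochondrial UMIs it was 0.77 for PST, -0.42 for PCT, -1.33 for PCT(Spp1+), -0.83 for PST(S2), -0.57 for PTinj and, among types, -0.56 for IC-B, -0.11 for podocytes and -0.067 for stroma. With both limits, chosen after the data were seen, it was 1.04 for PST, -0.72 for PCT, -0.76 for PCT(Spp1+), -0.99 for PST(S2), -0.74 for PTinj, -0.039 for PTnov2 and, among types, -0.64 for IC-B, -0.0098 for DCT and -0.081 for DCT/CNT. As shares of all nuclei of a rat, it was 0.72 for DCT, 0.50 for GEC(Reln+), 0.46 for IC-B, 0.22 for ATL, 0.17 for Fib/Peri and -0.10 for PST(S2). Without proximal nuclei, type shares changed by -0.034 for endothelial nuclei, -0.18 for IC-B, -0.61 for podocytes and -0.49 for stroma. Centred log-ratios gave -0.39 for podocytes and -0.26 for stroma. The arcsine scale gave -0.010 for podocytes, -0.0035 for PCT(Spp1+) and -0.017 for PTinj. Rats thinned to equal numbers of nuclei gave -0.021 for podocytes and -0.028 for PST(S2). By edgeR the change in the natural log of the share was -0.41 for podocytes, -0.11 for PCT(Spp1+) and -0.36 for PTinj.

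The composition distance changed to 0.0058 with at least 1000 UMIs and to 0.35 with at most 1% mitochondrial UMIs. Median genes gave 1 call with at least 50 nuclei. Genes within the UMI band gave 0 calls by means, with at least 10 or 50 nuclei, with both compared groups alone, and at 1500 to 2000 UMIs. The S score gave 1 call by medians or at 1000 to 1500 UMIs, and 0 with at least 10 nuclei or both groups alone, and the median S score of PTnov1 differed by -0.00073. With each rat left out, calls ranged from 0 to 2 for median UMIs and for median genes. They ranged from 0 to 4 for genes within the UMI band, 0 to 1 for mitochondrial percentage and for the G2M score, and 0 to 5 for the S score. Log odds changes then ranged from -0.18 to 0.0061 for DCT, -0.21 to 0.012 for GEC(Reln+), -0.056 to 0.17 for AA/LA/EA, -0.022 to 1.73 for IC-A/CD-Trans, -0.65 to 0.062 for Fib/Peri, -0.062 to 0.65 for SMC/Peri, -0.80 to 0.99 for PCT(Spp1+), -0.84 to 1.46 for PST(S2) and -0.60 to 1.05 for PTinj. For types they ranged from -0.33 to 1.22 for IC-B, -0.40 to 0.35 for immune nuclei, -0.32 to 0.70 for podocytes and -0.058 to 0.52 for stroma.

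With 3 rats a side, exact tests stop at 0.1, and clusters of few nuclei, such as PTnov2 or IC-A/CD-Trans, bound a change only loosely.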
